A study of Homo sapiens with 12 samples.

Results

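The numbered ZNF genes are human genes whose current symbol is ZNF followed by digits and at most 1 letter. They were read from arrays labelled as the breast cancer line MDA-MB-231 after stable transfection with constructs that lower or raise LSD2 (KDM1B), a demethylase of histone H3 lysine 4. Of 11964 genes measured by at least 1 probe set naming a single gene, 231 carried such a symbol. The brightest probe set over all 12 arrays stood for each gene. The 142 genes whose mean over the 12 arrays was at or above 6.20 on the log2 scale, the level that left the lowest 33.3% of all genes out, are the members described here, and the other 89 lay below it. Of the 142, 47 lie on chromosome 19 and 95 on other chromosomes, and 2 (ZNF271P and ZNF767P) are annotated as transcribed pseudogenes. Members were chosen by their mean level over all 12 arrays, which holds every group compared, so a gene that was bright in 1 group alone could pass. The values nearest the limit were 6.21 for ZNF770 and 6.24 for both ZNF835 and ZNF536 above it, and 6.18 for both ZNF551 and ZNF646 and 6.14 for ZNF224 below it.

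Most numbered ZNF genes encode C2H2 zinc finger proteins, in which repeated fingers grip DNA, and many of these also carry a KRAB domain. The KRAB domain recruits TRIM28 (KAP1), which brings the histone H3 lysine 9 methyltransferase SETDB1, HP1 proteins and deacetylases, and many KRAB zinc finger proteins use it to silence transposable elements. The genes arose largely by tandem duplication, and chromosome 19 holds large clusters of them. The numbering is a naming scheme and not a family, so the set also holds proteins of other kinds, such as the LIM-domain protein ZNF185.

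The 12 arrays form 4 groups of 3, compared in pairs, all of them labelled as MDA-MB-231 cells, stably transfected and kept in G-418 (800 µg/ml) to remove untransfected cells. MDA-MB-231 is an established line from a breast adenocarcinoma without oestrogen receptor. The transfected construct was scramble shRNA or LSD2 shRNA in the first pair of groups, and eGFP/Flag vector or LSD2/eGFP/Flag vector in the second. LSD2 shRNA was set against scramble shRNA (the shRNA comparison), and LSD2/eGFP/Flag against eGFP/Flag (the vector comparison). The labels do not say whether a line was a clone or a pool, nor that replicates came from separate transfections, so the p-values measure the spread between arrays that may share 1 line. KDM1B was named by 0 of the probe sets used, so the level of LSD2 itself is not a check of the labels here.

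The arrays labelled LSD2/eGFP/Flag stood apart from all others. Their values correlated with those of the eGFP/Flag arrays at r from 0.904 to 0.908 across genes, against 0.991 to 0.994 between LSD2 shRNA and scramble arrays and 0.996 to 0.998 within a group. Of 10 genes that mark MDA-MB-231 (among them VIM, CD44, CAV1 and EGFR), all 10 were above the 6.20 level in the other groups, while 4 were above it in the arrays labelled LSD2/eGFP/Flag. The mean log2 level of the list was 12.02 to 12.06 in eGFP/Flag arrays and 6.73 to 6.99 in arrays labelled LSD2/eGFP/Flag, and all 10 fell with a median of -4.89. Of 10 neural markers 5 rose and 2 fell, and that list's mean was 5.16 to 5.26 in eGFP/Flag arrays and 6.83 to 6.96 in arrays labelled LSD2/eGFP/Flag. In the shRNA comparison the median of the 10 MDA-MB-231 markers was 0.01. The vector comparison cannot be made without these arrays, and the part that the line's identity plays in any vector result below was not tested. The median log2 value was 6.65 to 6.71 in the shRNA arrays and 7.03 to 7.18 in the vector arrays, so the 2 sets appear to have been normalized separately and levels were compared only within each.

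The 250 bases before each RefSeq transcription start (GRCh38.p14) were searched on both strands for the core of the motif bound by ZNF143, spelled ACTACA, then any 2 bases, then TCCC, and for CTTCCGG, the core of ETS-type sites. RefSeq promoters were matched for 124 of the 142 members (170 starts). The ZNF143-type motif stood in 12.4% of the members' starts, 17.2% for chromosome 19 and 9.82% for the others, against 2.41% of all 14057 starts, 3.08% of the starts of genes at or above the same level, and 2.88% of starts of other chromosome 19 genes. CTTCCGG stood in 27.6% of the members' starts, against 11.1% of all starts and 13.8% of those of genes at or above that level. Among the other strings searched, GGGCGG stood in 58.2% of the members' starts, 56.7% of all starts and 63.7% of the starts of genes at or above that level. CCAAT stood in 35.9%, 33.3% and 33.5%, and CACGTG in 7.65%, 7.74% and 8.39%. No match of the ZNF143-type motif overlapped one of CTTCCGG in the 3 member starts that held both.

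Sequences are shown for members of 2 neighbourhoods the results turn on, 4 from chromosome 19 and 3 from the end of chromosome 12. They were picked because they hold the ZNF143-type motif. In the same neighbourhoods ZNF222 and ZNF226 held only CTTCCGG, and ZNF576, ZNF428, ZNF84 and another start of ZNF112 held neither. Each runs 5′ to 3′ on the gene's strand and ends at the base before the start. Capitals mark the ZNF143-type motif, here always as its reverse complement (GGGA, any 2 bases, TGTAGT), and CTTCCGG.
ZNF45, chr19:43935283-43935532, minus strand: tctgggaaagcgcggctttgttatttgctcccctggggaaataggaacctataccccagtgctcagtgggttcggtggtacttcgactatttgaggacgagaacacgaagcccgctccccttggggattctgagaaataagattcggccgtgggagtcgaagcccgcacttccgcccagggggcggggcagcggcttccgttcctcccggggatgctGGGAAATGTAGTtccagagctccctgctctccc
ZNF235, chr19:44305026-44305275, minus strand: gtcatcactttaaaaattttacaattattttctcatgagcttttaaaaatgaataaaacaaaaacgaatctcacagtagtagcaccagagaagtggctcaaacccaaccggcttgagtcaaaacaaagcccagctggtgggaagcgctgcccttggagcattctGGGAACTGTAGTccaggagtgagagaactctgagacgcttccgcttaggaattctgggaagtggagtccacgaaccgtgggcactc
ZNF112, chr19:44356681-44356930, minus strand: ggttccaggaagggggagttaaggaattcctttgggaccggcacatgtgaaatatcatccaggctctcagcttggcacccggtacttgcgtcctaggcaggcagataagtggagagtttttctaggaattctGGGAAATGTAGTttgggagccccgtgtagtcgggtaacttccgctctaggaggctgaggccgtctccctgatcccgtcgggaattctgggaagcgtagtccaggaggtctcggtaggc
ZNF180, chr19:44500523-44500772, minus strand: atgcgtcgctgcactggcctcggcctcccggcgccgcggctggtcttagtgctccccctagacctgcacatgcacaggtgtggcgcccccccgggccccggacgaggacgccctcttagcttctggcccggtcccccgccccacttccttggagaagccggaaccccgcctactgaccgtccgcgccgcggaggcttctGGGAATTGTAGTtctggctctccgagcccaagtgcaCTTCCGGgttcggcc
ZNF26, chr12:132986117-132986366, plus strand: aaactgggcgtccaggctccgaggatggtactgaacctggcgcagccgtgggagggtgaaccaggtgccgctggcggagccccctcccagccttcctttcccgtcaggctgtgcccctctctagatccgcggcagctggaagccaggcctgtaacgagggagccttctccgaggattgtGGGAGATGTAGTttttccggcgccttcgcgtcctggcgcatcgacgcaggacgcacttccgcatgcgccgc
ZNF140, chr12:133080673-133080922, plus strand: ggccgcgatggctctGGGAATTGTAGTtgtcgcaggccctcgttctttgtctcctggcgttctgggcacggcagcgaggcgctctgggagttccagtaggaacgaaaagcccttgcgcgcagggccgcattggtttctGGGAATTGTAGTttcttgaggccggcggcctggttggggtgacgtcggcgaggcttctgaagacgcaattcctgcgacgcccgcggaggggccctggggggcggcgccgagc
ZNF268, chr12:133181245-133181494, plus strand: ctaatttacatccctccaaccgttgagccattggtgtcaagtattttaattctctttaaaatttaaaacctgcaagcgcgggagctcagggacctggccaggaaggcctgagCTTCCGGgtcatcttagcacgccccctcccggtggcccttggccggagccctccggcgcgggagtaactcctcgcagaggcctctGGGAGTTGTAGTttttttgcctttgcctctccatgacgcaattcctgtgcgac
The first base of the match lay 33 bases before the start in ZNF45, 86 in ZNF235, 118 in ZNF112, 51 in ZNF180, 71 in ZNF26 and 53 in ZNF268. ZNF140 held 2 copies, 235 and 112 bases before its start. These are letter matches and were not tested as binding sites. Among chromosome 19 members, the median vector difference was -0.47 for the 9 genes with the ZNF143-type motif and -0.39 for the 35 without it. For the members elsewhere it was 0.04 for the 10 genes with the motif and 0.20 for the 70 without it. With CTTCCGG the chromosome 19 median was -0.53 for the 19 genes holding it and -0.29 for the 25 without it. Elsewhere the medians were 0.05 for the 26 genes with CTTCCGG and 0.23 for the 54 without it. A link between either motif and the differences was not tested.

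Few numbered ZNF genes changed with LSD2 shRNA. Among the 142 members 6 rose and 4 fell (limma, Benjamini-Hochberg adjusted p under 0.05 over all 11964 genes), where 5.0% of all genes rose and 5.53% fell. Of the 7976 genes at or above the 6.20 level, 6.97% rose and 7.80% fell. The largest rise was that of ZNF518A, and the largest fall to pass was that of ZNF281, a GC-box-binding regulator linked to stem cell programmes. No member moved by 1 log2 unit or more, where 0.343% of all genes rose and 0.184% fell by that much. Differences ran from -0.46 to 0.76, and their median was 0.02, beside -0.01 for all genes. On chromosome 19, 2 of 47 members rose and 1 fell, and elsewhere 4 of 95 rose and 3 fell. Among the 707 other genes of chromosome 19, 4 rose and 30 fell.

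ZNF518A had log2 levels of 6.64, 6.35 and 6.53 in scramble arrays and 7.32, 7.08 and 7.41 in LSD2 shRNA arrays. The difference was 0.76 ± 0.12 (SE, 3 arrays a group; limma, Benjamini-Hochberg adjusted p = 0.00127). The groups did not overlap, but a dimmer probe set of ZNF518A differed by 0.09. ZNF468, a KRAB zinc finger gene of chromosome 19, read 6.31, 6.20 and 6.33 with scramble and 7.11, 6.70 and 6.80 with LSD2 shRNA. It rose by 0.59 ± 0.12 (limma, Benjamini-Hochberg adjusted p = 0.00724), and all 3 LSD2 shRNA arrays lay above all 3 scramble arrays. ZNF804A, a gene known from schizophrenia association studies, read 6.76, 6.66 and 6.79 against 7.34, 7.06 and 7.34, a rise of 0.51 ± 0.09 (limma, Benjamini-Hochberg adjusted p = 0.00382). Its groups did not overlap either.

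The other rises were smaller. ZNF26 read 7.93, 7.87 and 8.04 with scramble and 8.34, 8.15 and 8.56 with LSD2 shRNA, a difference of 0.40. ZNF140 read 7.46, 7.39 and 7.62 against 7.89, 7.83 and 7.94, also 0.40. In both genes the groups were apart, by less than in ZNF518A. ZNF45 read 8.56, 8.83 and 8.63 against 8.97, 9.10 and 9.07, a rise of 0.37. Among the falls, ZNF281 read 8.95, 8.76 and 9.03 with scramble and 8.43, 8.35 and 8.65 with LSD2 shRNA, a difference of -0.44. The highest LSD2 shRNA array of ZNF281 lay just below its lowest scramble array. ZNF106 read 9.06, 8.99 and 9.03 against 8.55, 8.73 and 8.70 (-0.37). ZNF428 read 8.39, 8.56 and 8.43 against 7.99, 8.08 and 8.22 (-0.36). ZNF232, which carries a SCAN domain for pairing with other zinc finger proteins, read 8.30, 8.29 and 8.34 against 8.03, 7.94 and 7.91 (-0.34). In all 3 the groups did not overlap, and the adjusted p of these 7 genes ran from 0.00833 to 0.0254 (limma, Benjamini-Hochberg).

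Leaving out single arrays split these 10 genes. ZNF518A, ZNF468, ZNF804A, ZNF106 and ZNF232 stayed past the threshold in each of the 12 fits that left out 1 array. ZNF26 and ZNF140 each lost the call without scramble replicate 1 or 2 or without LSD2 shRNA replicate 1 or 3. ZNF45 lost it when scramble replicate 1 or 3 was left out, and also when LSD2 shRNA replicate 2 or 3 was. For ZNF281 the arrays that mattered were replicates 1 and 3 of scramble and replicates 1 and 2 of LSD2 shRNA, and for ZNF428 replicate 2 of scramble and replicates 1 and 2 of LSD2 shRNA. With leave-outs the number of members that rose ran from 3 (without scramble replicate 1 or LSD2 shRNA replicate 3) to 9, and the number that fell from 2 (without LSD2 shRNA replicate 1 or 2) to 6.

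**Figure D1:**
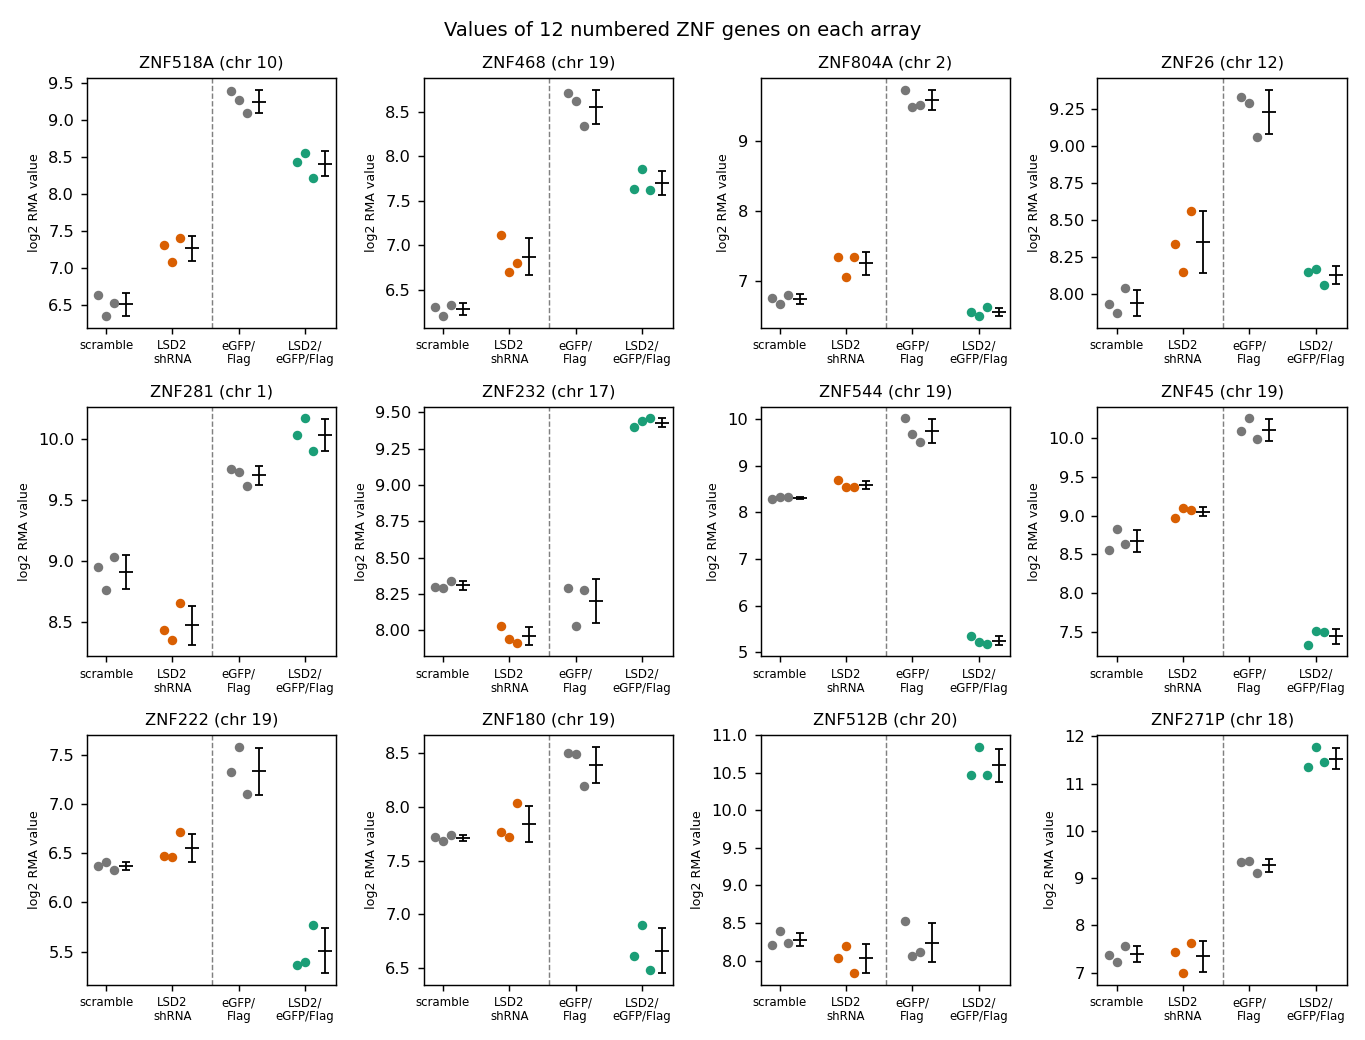
Log2 values of 12 numbered ZNF genes on each of the 12 arrays, 1 panel a gene, with the 4 groups on the horizontal axis and the log2 value on the vertical axis. Points are arrays, the bar beside them is the mean with 1 SD (n = 3), and the dashed line parts the shRNA arrays from the vector arrays, which are not compared with each other. The LSD2 shRNA arrays of ZNF518A lie at 7.08 to 7.41, above its scramble arrays, and those of ZNF544 labelled LSD2/eGFP/Flag lie at 5.18 to 5.35, below its eGFP/Flag arrays at 9.52 to 10.02.

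Between the vector arrays most numbered ZNF genes differed, in both directions, and the counts on chromosome 19 went mostly down while those elsewhere did not. With LSD2/eGFP/Flag 51 of the 142 members rose and 56 fell, where 30.9% of all genes rose and 26.1% fell (limma, Benjamini-Hochberg adjusted p under 0.05). These are 35.9% and 39.4% of the members, near the 37.1% and 33.9% of the 7976 genes at or above the 6.20 level. On chromosome 19, 7 of 47 rose and 27 fell, with a median of -0.46, and 38 of the 47 differences were below 0. On other chromosomes 44 of 95 rose and 29 fell, with a median of 0.17. The medians were 0.01 for all genes, 0.03 for all genes at or above the 6.20 level, and 0.00 for the 707 other genes of chromosome 19, of which 192 rose and 170 fell. Of the 472 of these at or above the 6.20 level 145 rose and 154 fell (median -0.01). Without the limit on level the counts were 12 rises and 48 falls among 103 genes of chromosome 19 (median -0.18), and 57 rises and 33 falls among 128 elsewhere (median 0.11).

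The zero point of these counts depended on the scaling of the arrays. When every array was set to the same median, the median of all genes moved from 0.01 to -0.12, all genes split into 2917 rises and 4300 falls in place of 3701 and 3123, and the members into 43 rises and 72 falls. On chromosome 19 this gave 6 rises and 34 falls, and elsewhere 37 rises and 38 falls. The medians were then -0.60 for chromosome 19 members and 0.04 for the others. Over the normalizations, models and leave-outs tried with these 142 members, 27 to 34 chromosome 19 members fell and 6 or 7 rose.

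**Figure D2:**
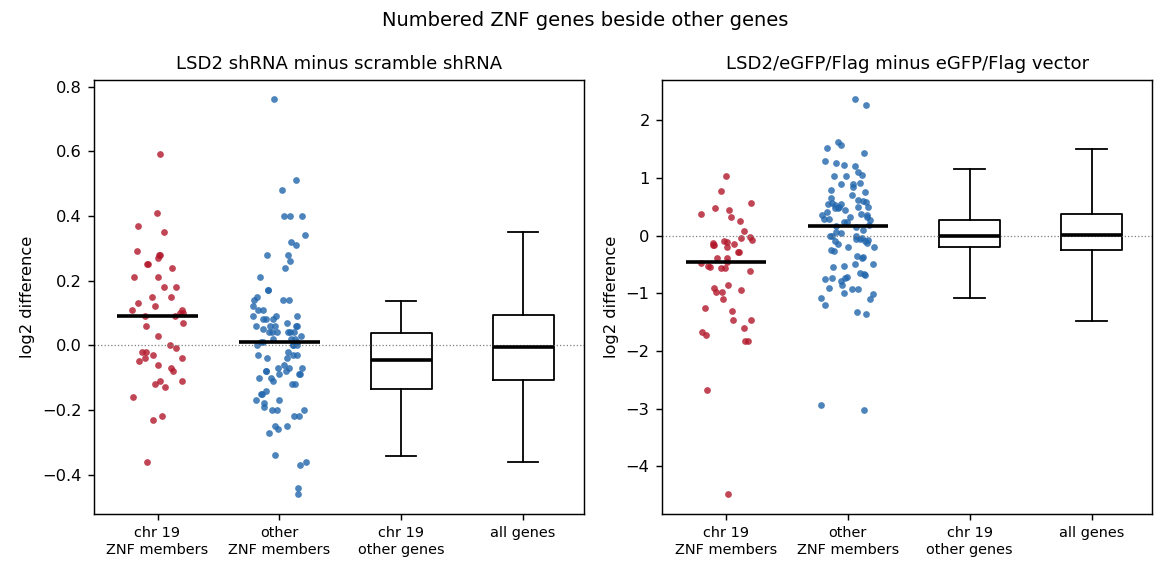
Log2 differences (vertical axis) in the shRNA comparison, left, and the vector comparison, right. Points are the 47 members on chromosome 19 and the 95 members elsewhere with a line at the median, and boxes are the 707 other genes of chromosome 19 and all 11964 genes (median, quartiles, whiskers at the 5th and 95th percentiles). In the vector comparison the medians of the members are -0.46 and 0.17, and in the shRNA comparison 0.09 and 0.01.

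Of the 8 largest falls, 6 were on chromosome 19. Among members, 20 fell by 1 log2 unit or more, 12 of them on chromosome 19, and 15 rose by as much, 1 of them on chromosome 19. These are 14.1% and 10.6% of the members. Among all genes 8.49% fell and 9.76% rose by that much, and among genes at or above the 6.20 level 11.6% and 10.7%. ZNF544, on chromosome 19, read 10.02, 9.68 and 9.52 in eGFP/Flag arrays and 5.35, 5.23 and 5.18 in arrays labelled LSD2/eGFP/Flag. It fell by 4.48 on the log2 scale (SE 0.11; limma, Benjamini-Hochberg adjusted p = 5.3e-13), from among the brighter members to below the 6.20 level. ZNF45 fell by 2.67 ± 0.09, from 10.09, 10.26 and 9.99 to 7.33, 7.51 and 7.49 (limma, Benjamini-Hochberg adjusted p = 2.3e-11). Its other probe set differed by -3.21.

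The next largest falls on chromosome 19 were smaller. ZNF264 read 8.42, 8.05 and 7.97 against 6.15, 6.41 and 6.41 (-1.82). ZNF222 read 7.32, 7.58 and 7.10 against 5.36, 5.39 and 5.77 (also -1.82), on a probe set of the _x_at kind, which can bind similar transcripts. ZNF180 read 8.50, 8.49 and 8.19 against 6.61, 6.90 and 6.48 (-1.73). In ZNF264, ZNF222 and ZNF180 every array labelled LSD2/eGFP/Flag lay more than 1 log2 unit below every eGFP/Flag array. ZNF304 read 7.48, 7.18 and 7.18 against 5.53, 5.77 and 5.52 (-1.67). The adjusted p of these 4 genes ran from 5.7e-09 to 3.6e-08 (limma, Benjamini-Hochberg).

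Outside chromosome 19, ZNF804A on chromosome 2 read 9.74, 9.49 and 9.52 in eGFP/Flag arrays and 6.55, 6.49 and 6.62 in arrays labelled LSD2/eGFP/Flag. It fell by 3.03 ± 0.09 (limma, Benjamini-Hochberg adjusted p = 6.2e-12). ZNF185, a LIM-domain protein of the actin cytoskeleton encoded on the X chromosome, read 10.39, 10.28 and 10.55 against 7.14, 7.64 and 7.64, a difference of -2.93 ± 0.13 (limma, Benjamini-Hochberg adjusted p = 2.0e-10). Neither gene encodes a KRAB repressor.

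All 8 of the largest rises, picked without overlap like the falls, came from other chromosomes. ZNF512B, on chromosome 20, read 8.53, 8.06 and 8.12 against 10.47, 10.85 and 10.47, a rise of 2.36 ± 0.14 (limma, Benjamini-Hochberg adjusted p = 5.5e-09), and its other probe set rose by 1.90. The transcribed pseudogene ZNF271P, on chromosome 18, read 9.34, 9.36 and 9.11 against 11.36, 11.78 and 11.45 (2.26). In both genes the lowest array of the higher group lay more than 1 log2 unit above the highest of the lower group. ZNF318 read 8.24, 7.75 and 7.89 against 9.58, 9.72 and 9.43 (1.62). ZNF764 read 7.84, 7.73 and 7.63 against 9.36, 9.34 and 9.21 (1.57). ZNF589 read 7.79, 7.77 and 7.51 against 9.18, 9.42 and 9.05 (1.52). ZNF318 takes part in the making of IgD in B cells. ZNF24, a SCAN-domain factor, read 9.94, 9.77 and 9.68 against 11.07, 11.35 and 11.29 (1.44). ZNF354A, known from kidney, read 7.34, 7.50 and 7.38 against 8.80, 8.80 and 8.49 (1.29). ZNF74, in the chromosome 22 region deleted in DiGeorge syndrome, read 6.75, 6.85 and 6.65 against 7.95, 8.08 and 8.01 (1.26). These 3 genes had lower levels in each eGFP/Flag array too. Other probe sets rose by less in several of these genes, for example by 1.16 in ZNF318, 0.78 in ZNF764, and 1.10 and 0.26 in ZNF24.

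**Figure D3:**
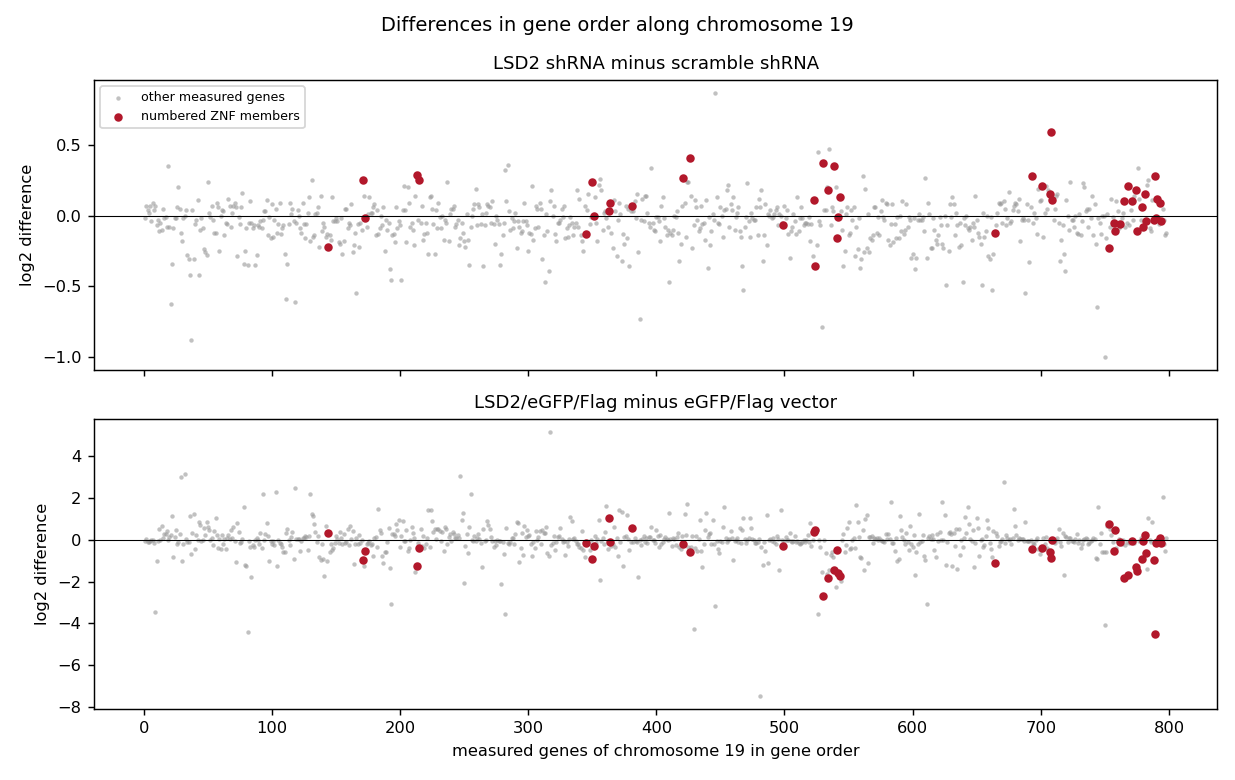
Log2 differences (vertical axis) of the measured genes of chromosome 19 for the shRNA comparison, top, and the vector comparison, bottom. Genes are drawn in order of their start in RefSeq's gene table (horizontal axis, evenly spaced). The first 8 points, KIR2DL2 to LILRA3, may not stand at their place on the chromosome. Large points are the 47 numbered ZNF members and small points the other measured genes. In the bottom panel 38 of the 47 members lie below 0, and the lowest is ZNF544 at -4.48.

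Members that neighbour each other on chromosome 19 were taken as a run while fewer than 10 other protein-coding genes that are no C2H2 genes by symbol lay between them. The run from ZNF576 to ZNF180 held 8 members, of which 2 rose (ZNF576 by 0.38 and ZNF428 by 0.48) and 6 fell, with a median of -1.54. A dimmer probe set of ZNF576 differed by -0.11, so the sign of its difference rests on the brighter one. The 2 that rose are the first 2 of the run, and the other 6 follow each other in order. Beside ZNF45, ZNF222 and ZNF180 these were ZNF226, ZNF235 and ZNF112. ZNF112 read 7.70, 7.07 and 7.13 in eGFP/Flag arrays and 5.38, 5.84 and 5.83 in arrays labelled LSD2/eGFP/Flag (-1.61). ZNF226 read 8.32, 8.26 and 8.73 against 7.38, 6.52 and 7.03 (-1.46). ZNF235 read 7.50, 7.32 and 7.14 against 6.78, 7.04 and 6.72 (-0.47), the smallest fall of the 6, with groups that came close without overlap. Without the limit on level 13 of the 16 measured ZNF genes of the run fell, ZNF227 by 2.26. Of 5 other measured genes between them 1 rose and 3 fell. Among the 8 members only ZNF45 and ZNF235 were read by plain probe sets (_at). ZNF222 had an _x_at probe set. The rest, like ZNF227, had probe sets shared within a gene family or between transcripts (_s_at). Neighbours may therefore share signal, so their falls need not be separate readings. The promoters of ZNF45, ZNF235, ZNF112 and ZNF180 shown above are from this run.

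The run from ZNF175 to ZNF160 held 5 members, of which 4 fell (ZNF175 -0.46, ZNF432 -0.39, ZNF611 -0.57 and ZNF468 -0.85), with a median of -0.46. ZNF160 differed by -0.03. Without the limit on level 11 of the 14 measured ZNF genes of the run fell. The run from ZNF787 to ZNF446, toward the end of the long arm, held 18 members, of which 1 rose (ZNF444 by 0.45) and 9 fell, with a median of -0.35. Without the limit on level 3 of its 32 measured ZNF genes rose and 11 fell, with a median of -0.11. Its falls included ZNF544, ZNF264, ZNF304, ZNF211 (-1.47), ZNF134 (-1.30), ZNF274 (-0.97) and ZNF586 (-0.91). The run from ZNF14 to ZNF507 had 1 rise (ZNF536), 1 fall (ZNF85, -0.94) and a median of -0.15 among 5 members. Without the limit on level 2 of its 16 measured ZNF genes rose and 3 fell, with a median of -0.12. Among the genes between ZNF430 and ZNF536 in this run are POP4, PLEKHF1, CCNE1 and URI1. Runs were formed by counts of genes and not by distance, so members of a run can lie far apart. Differences between runs were not tested.

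Runs on other chromosomes were looked at after the chromosome 19 values had been seen, and they went both ways. On chromosome 1, 5 of 6 members rose and 0 fell, and on chromosome 3, 1 of 5 rose and 4 fell. On chromosome 16, 11 of 14 members rose and 1 fell, where 37.1% of genes at or above the level limit rose and 33.9% fell. Those 14 were not set against all other genes of chromosome 16. In its run from ZNF771 to ZNF668 the rises were 0.50 for ZNF771, 0.76 for ZNF747, 1.57 for ZNF764, 0.54 for ZNF688 and 0.66 for ZNF629, while ZNF668 differed by 0.09. Of 13 other measured genes in that stretch 10 rose and 1 fell, with a median of 0.75 beside 0.60 for the members. On chromosome 7 the run from ZNF282 to ZNF862 gave rises of 1.05 for ZNF282, 0.36 for ZNF212, 1.21 for ZNF783 and 0.90 for ZNF767P. ZNF862 differed by -0.10 there. On chromosome 10, 3 of 5 members from ZNF248 to ZNF22 fell (ZNF33B -1.36, ZNF239 -0.67 and ZNF22 -0.69) and ZNF32 rose by 0.29.

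**Figure D4:**
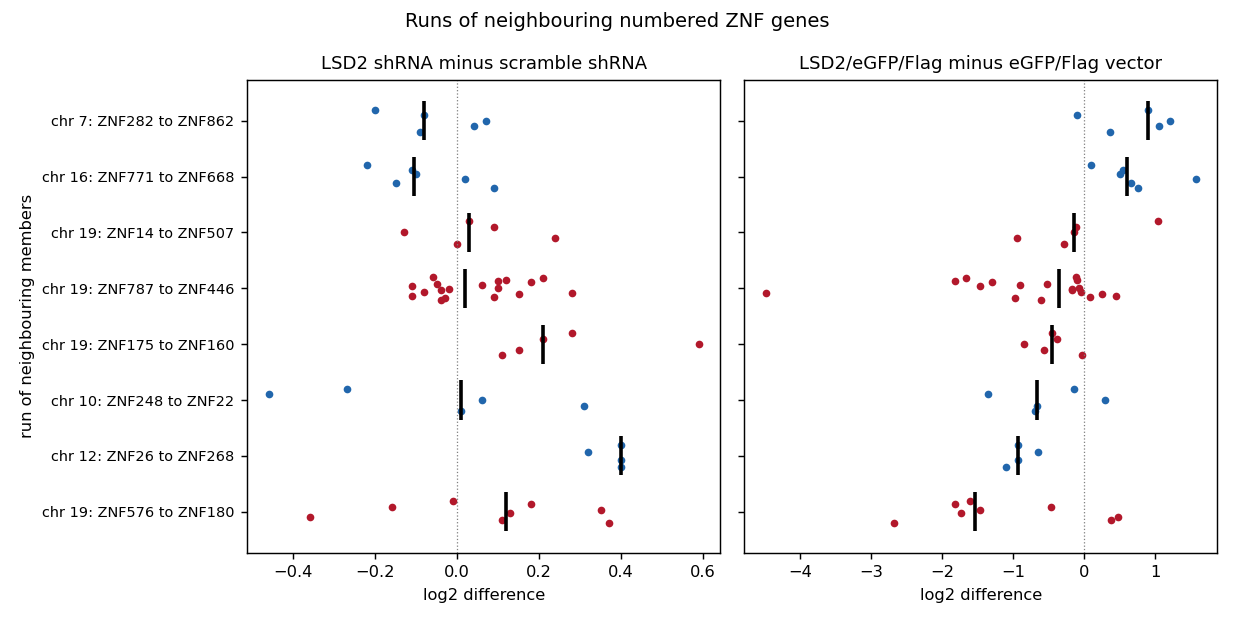
Log2 differences (horizontal axis) of members in runs of at least 4 neighbours (vertical axis, ordered by the vector median) in the shRNA comparison, left, and the vector comparison, right; the 2 panels have different scales. Points are genes, in red on chromosome 19 and in blue elsewhere, and the line is the median of the run. The 4 genes of the chromosome 12 run have a median of 0.40 on the left and -0.93 on the right.

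The end of the long arm of chromosome 12 holds ZNF26, ZNF84, ZNF140 and ZNF268 beside each other, a group singled out after its values had been seen. In the shRNA comparison they differed by 0.40, 0.32, 0.40 and 0.40, of which ZNF26 and ZNF140 passed the test. ZNF84 read 7.37, 7.28 and 7.34 with scramble and 7.55, 7.45 and 7.92 with LSD2 shRNA, and ZNF268 read 6.34, 6.28 and 6.43 against 6.77, 6.49 and 6.98. No array overlapped in either gene, but neither passed (limma, Benjamini-Hochberg adjusted p = 0.148 and 0.0972). In the vector comparison all 4 fell, ZNF26 by 1.10, ZNF84 by 0.65, ZNF140 by 0.93 and ZNF268 by 0.93. ZNF10, the gene whose KRAB domain is used in CRISPR interference, lies among them and differed by 0.27 and -0.36, neither called, at a level of about 4.48 that kept it out of the members. The 8 other measured genes next to them toward the centromere, from NOC4L to CHFR, differed by -0.28 to 0.20 in the shRNA comparison, with adjusted p of 0.149 or more (limma, Benjamini-Hochberg). In the vector comparison 4 of those 8 rose and GOLGA3 fell, with a median of 0.33.

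The 10 members that changed with LSD2 shRNA were then read in the vector comparison, which shares no array with the first. All 6 that had risen fell, and of the 4 that had fallen 3 rose, while ZNF106 differed by -0.07. Among all genes tested, 54.2% of the 598 that rose with LSD2 shRNA fell in the vector comparison and 22.1% rose, and 40.8% of the 662 that fell with LSD2 shRNA rose and 35.3% fell. ZNF518A, for example, read 9.40, 9.27 and 9.09 in eGFP/Flag arrays and 8.44, 8.55 and 8.22 in arrays labelled LSD2/eGFP/Flag (-0.85), though its dimmer probe set differed by 0.13. ZNF468 read 8.71, 8.62 and 8.34 against 7.63, 7.86 and 7.62 (-0.85). Both were higher in every LSD2 shRNA array than in every scramble array, and lower in every array labelled LSD2/eGFP/Flag than in every eGFP/Flag array. ZNF232 read 8.29, 8.03 and 8.28 against 9.40, 9.44 and 9.46 (1.23). ZNF428 read 7.02, 7.02 and 7.27 against 7.66, 7.57 and 7.52 (0.48). ZNF281 read 9.75, 9.73 and 9.61 against 10.03, 10.17 and 9.90 (0.33). All 3 rose with no overlap, but ZNF281 lost the call when all arrays were set to equal medians and without LSD2/eGFP/Flag replicate 2.

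The difference between the 2 comparisons was itself tested for each gene as the vector difference minus the shRNA difference. It passed for 94 of the 142 members, 43 upward and 51 downward, where 50.4% of all genes passed, 28.0% upward and 22.4% downward (limma, Benjamini-Hochberg). The members' shares were 30.3% and 35.9%, beside 33.7% and 29.6% of the genes at or above the 6.20 level. On chromosome 19, 5 passed upward and 26 downward (median -0.52), and elsewhere 38 and 25 (median 0.16). With equal medians the counts elsewhere turned to 27 upward and 30 downward (median -0.01), with 4 and 33 on chromosome 19 (median -0.70). With cyclic loess the median elsewhere was 0.02 and that on chromosome 19 was -0.67. Another 34 members, 13 of them on chromosome 19, passed the test in neither comparison, with differences from -0.36 to 0.48 in the shRNA comparison and -0.29 to 0.33 in the vector comparison.

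**Figure D5:**
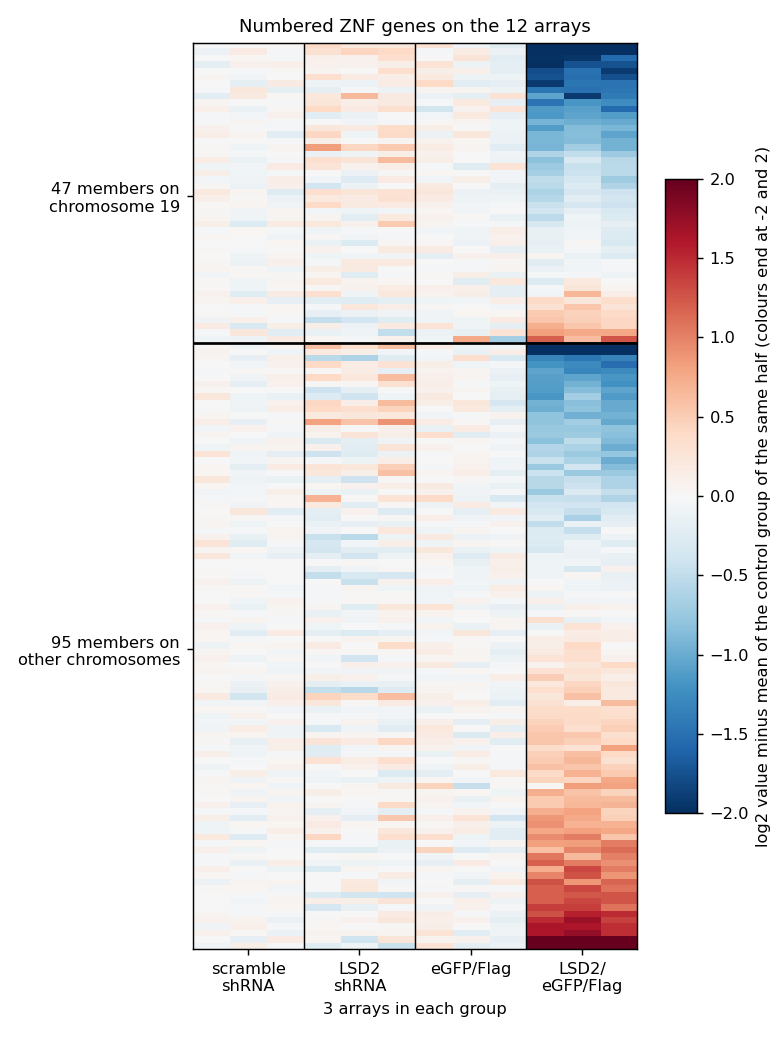
Log2 value of each of the 142 members (vertical axis, chromosome 19 above the line, each part ordered by the vector difference) on the 12 arrays (horizontal axis), less the mean of scramble arrays for the shRNA arrays and of eGFP/Flag arrays for the vector arrays. Red is higher and blue is lower, and colours end at -2 and 2. The 3 arrays labelled LSD2/eGFP/Flag hold most of the colour and look alike, with 27 falls and 7 rises on chromosome 19.

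None of the 4 brightest members was called in the shRNA comparison, where the median absolute difference of members was 0.11. ZNF207, a mitotic protein that binds BUB3, had a mean level of 11.78 over all arrays, differed by -0.03 in the shRNA comparison and rose by 0.38 in the vector comparison. ZNF706 (mean 11.67) differed by 0.21 and then fell by 0.90, ZNF22 (mean 10.69) differed by 0.01 and then fell by 0.69, and ZNF146 (mean 10.63) differed by 0.27 and -0.20, neither of them called. These are probe set levels and do not order the genes by transcript number.

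A list of 39 numbered ZNF genes with well-described roles held 35 measured genes, 27 of them members. In the shRNA comparison 1 of the 27 rose (ZNF468) and 1 fell (ZNF281), and in the vector comparison 11 rose and 9 fell. The shRNA counts are 3.7% each way, where 6.97% of all genes at or above the level limit rose and 7.8% fell. The vector counts are 40.7% and 33.3%, near the 37.1% and 33.9% of all genes at or above that limit. ZNF143, which binds the motif searched for above, differed by 0.05 and -0.25 and passed in neither. Its paralog ZNF76 rose by 0.89 in the vector comparison. ZNF274, which brings SETDB1 to the ends of other zinc finger genes, read 8.99, 9.01 and 8.87 in eGFP/Flag arrays and 8.03, 7.99 and 7.96 in arrays labelled LSD2/eGFP/Flag, a difference of -0.97 ± 0.06 (limma, Benjamini-Hochberg adjusted p = 1.9e-08). It differed by -0.03 in the shRNA comparison. ZNF217, an oncogene amplified in breast tumours, read 9.71, 9.70 and 9.52 against 8.58, 8.34 and 8.37 (-1.21), and differed by 0.00 with LSD2 shRNA. Every array labelled LSD2/eGFP/Flag was lower than every eGFP/Flag array in both genes.

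Other regulators on that list moved in both directions. ZNF148 (ZBP-89) fell by 0.54, ZNF202, a repressor of lipid metabolism genes, by 0.53, and ZNF592 by 0.49. ZNF516, linked to brown fat, rose by 1.10, ZNF638, an RNA- and DNA-binding silencing factor, by 0.62, and the neural repressor ZNF536 by 1.03. The rise of ZNF536 stood on eGFP/Flag arrays that spread from 5.50 to 6.94 and overlapped the LSD2/eGFP/Flag arrays at 6.80 to 7.43. ZNF133, ZNF146, ZNF195, ZNF219, ZNF419 and ZNF507 passed in neither comparison. The calls of ZNF335 (-0.27), ZNF652 (0.56) and ZNF408 (0.29) were each lost under at least 1 alternative, that of ZNF652 under 16.

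Some of the best known KRAB repressors lay below the level limit and so are no members. ZNF91, which represses SVA elements, read 6.89, 6.30 and 6.55 in eGFP/Flag arrays and 4.56, 4.65 and 4.72 in arrays labelled LSD2/eGFP/Flag (-1.93). ZNF93, which represses L1 elements, differed by -0.47, and both passed the test. The other probe set of ZNF93, nearly as bright, differed by -1.55. ZNF423, an EBF partner in fat and neural cells, rose by 2.79, from 4.97, 4.99 and 5.07 to 7.71, 7.83 and 7.88. Within the vector arrays, ZNF91 was above the level limit only with eGFP/Flag, and ZNF423 was above it only in arrays labelled LSD2/eGFP/Flag.

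The corepressor machinery of KRAB proteins was read from a list of 37 genes, 30 of them measured. TRIM28 itself differed by -0.03 in the shRNA comparison and -0.19 in the vector comparison and passed in neither. With LSD2 shRNA 2 genes rose (CBX3, an HP1 protein, by 0.29, and the deacetylase HDAC2 by 0.23) and 2 fell (CHD3 of the NuRD complex by 0.60 and the phosphatase PPP1CA by 0.43). These are 6.67% each way, near the 5.0% and 5.53% of all genes. In the vector comparison 16 rose and 7 fell (53.3% and 23.3%, where 30.9% and 26.1% of all genes and 37.1% and 33.9% of those at or above the 6.20 level did). SETDB1 rose by 1.12 while its partner ATF7IP fell by 1.36. TASOR of the HUSH complex fell by 1.21, and the NuRD members RBBP4 and MTA1 rose by 1.45 and 1.23. The H3 lysine 9 methyltransferase SUV39H1 rose by 1.01.

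Other zinc finger families were taken by symbol. With LSD2 shRNA 3 of 21 KLF and SP genes rose (KLF4 by 1.05, KLF10 by 0.65 and KLF11 by 0.35) and KLF7 fell by 0.56. These are 14.3% and 4.76%, where 5.0% of all genes rose and 5.53% fell. The symbol rule also takes in nuclear body genes such as SP110, which are not SP factors. None of the 5 ZFP, 9 ZSCAN, 6 ZKSCAN, 25 ZBTB and 11 PRDM genes was called with LSD2 shRNA. In the vector comparison 30.9% of all genes rose and 26.1% fell. There 4 of the 21 KLF and SP genes rose and 8 fell, and 12 of 25 ZBTB genes rose and 5 fell. Of 9 ZSCAN genes 3 rose and 3 fell (33.3% each way). Of 6 ZKSCAN genes 2 rose and 0 fell, and of 5 ZFP genes 1 rose and 2 fell. Of 11 PRDM genes 4 rose and 2 fell, and PRDM13 rose by 3.28.

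How the probe sets were built limits these results. Of the members, 84 were read by plain probe sets, 39 by probe sets shared within a gene family or between transcripts (_s_at) and 19 by ones that can bind other transcripts (_x_at), so values of near-identical copies are uncertain. With plain probe sets alone, 2 of 23 chromosome 19 members rose and 16 fell in the vector comparison (median -0.53), and 26 of 61 other members rose and 21 fell (median 0.00). Of 43 further probe sets for members called in the vector comparison, 36 differed in the same direction as the brightest one, and 23 of those also by at least 50% of its size. Of the 142 members, 5 were at or above the 6.20 level in eGFP/Flag arrays and below it in arrays labelled LSD2/eGFP/Flag, 4 of them on chromosome 19, and 1 member went the other way.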

How the data were processed

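Total RNA of 12 samples was measured on 3′ expression arrays. The values are those the authors deposited, on the log2 scale, for 22277 probe sets. Per the submitters' processing notes they were made with RMA, which corrects background, normalizes by quantiles and summarises probes. Which software, version and probe annotation were used is not given in the sources used here. RMA gives no detection call, so the order of dim genes means little, and 3 arrays a group limit the precision. The planned count of protein features was not analysed here.

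Gene names came from the platform's annotation, with symbols updated by gene identifier in RefSeq's gene table (GRCh38.p14). Of all probe sets, 62 were controls, 19064 named 1 gene (19052 matched the table) and 1043 several, and the brightest per gene gave 11964 genes. Differences were tested two-sided with limma 3.58.1 (R 4.3.3, lmFit and eBayes) on 4 group means over all 12 arrays, with 8 residual and 4.82 prior degrees of freedom and Benjamini-Hochberg adjustment over all genes, called at adjusted p under 0.05. In data simulated with normal noise, 67 of 11964 genes were changed by 0.5 log2 units, 67 by 1 and 66 by 2 in each comparison. The fit recovered 70.1% of changes of 0.5 and 95.5% of changes of 1 in the shRNA comparison, and 73.1% and 97.0% in the vector comparison. Far fewer genes changed there than were called in the real comparisons (10.5% and 57.0% of all genes). The rates therefore need not hold for the real data.

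The members and gene lists were chosen with earlier results of these data known. Described genes were the 8 largest called rises and falls without overlap in each comparison, members called in both comparisons (up to 4 for each pattern of directions), the 4 brightest, the 3 nearest the level limit on each side, genes with well-known roles, called genes of the listed families (up to 6), and members of the runs. Alternatives were other normalizations, models, probe set choices, thresholds, a block on replicate number and leaving out each array. Of the other marker lists checked, the luminal breast list gave 2 rises and 5 falls in the vector comparison, the blood list 0 and 1, and the fibroblast and endothelial list 3 and 2.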

Additional observations from a re-analysis of the deposited data

Results flagged for a closer look

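A set of 9 genes called in both comparisons is listed here because the vector difference and the shRNA difference of each had opposite signs and the test of the difference between them passed (limma, Benjamini-Hochberg). A gene called in both with opposite signs passes that test almost by construction, so passing adds no further support. The vector difference minus the shRNA difference, in log2 units, was -3.54 for ZNF804A, -3.04 for ZNF45, -1.61 for ZNF518A, -1.50 for ZNF26, -1.44 for ZNF468 and -1.32 for ZNF140. It was 0.77 for ZNF281, 0.84 for ZNF428 and 1.58 for ZNF232. The sign of ZNF518A rests on its brightest probe set, since the dimmer one differed by 0.09 and 0.13. The arrays labelled LSD2/eGFP/Flag, on which every one of these values rests, had low levels of the MDA-MB-231 markers, and their part in these values was not tested.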

How the results depend on the processing

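For the shRNA comparison the number of members that rose (6) became 11 with quantile normalization of all arrays, 14 with array weights, 3 at adjusted p under 0.01 and 3 when a size of at least 0.5 log2 units was required. The number that fell (4) became 12 with array weights, 1 at adjusted p under 0.01 and 0 at the size of at least 0.5 (limma, Benjamini-Hochberg). Leaving out 1 array gave 3 to 9 rises and 2 to 6 falls. For the vector comparison the median of the members (-0.09) became -0.22 with equal medians and -0.18 with cyclic loess. Its 51 rises became 32 at the size of at least 0.5 and 30 with the level limit at the median of all genes (7.59), which also left 31 falls and 53 members whose differences differed between the comparisons. Leaving out 1 array gave 48 to 51 rises, 53 to 57 falls and 88 to 93 members with such a difference. The cause of these changes was not tested, apart from the smaller number of members under the higher limit. No called difference of a described gene changed sign under these alternatives. The balance of counts did turn: with equal medians the members outside chromosome 19 gave 37 rises and 38 falls in the vector comparison (44 and 29 otherwise), and without LSD2 shRNA replicate 3 the members gave 3 rises and 6 falls in the shRNA comparison. A fit without the arrays labelled LSD2/eGFP/Flag, chosen after seeing the data, gave 8 rises and 4 falls in the shRNA comparison. With the replicate block the shRNA comparison kept counts of 6 and 4, and the vector comparison gave 49 and 57. Replicate numbers were not taken as pairing the samples, since not every pair of arrays with the same number deviated together. Their deviations correlated at 0.02, 0.508 and 0.446 in the shRNA comparison and -0.142, 0.175 and 0.182 in the vector comparison. Of the 107 members called in the vector comparison, 98 stayed past the threshold in all 12 leave-outs.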
